A study of Mytilus galloprovincialis with 40 samples.

Results

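The high summer course of relative transcript abundance was followed in the digestive gland of female Mediterranean mussels (*Mytilus galloprovincialis*) from June to August 2007. Of the 40 two-colour cDNA arrays of an annual loop, which covered 12 months, 6 held these months: 3 arrays set July against June (Jul/Jun) and 3 set August against July (Aug/Jul), and they were taken by their titles. No array set August directly against June, so August minus June was the sum of both step means. All animals were untreated females from the natural population of the Bizerta Lagoon, Tunisia, and each dye channel held the RNA of a single animal; their age was not given. According to the methods, the females came from the gonad stage most represented in the month, so that month and reproductive stage cannot be told apart here. The labels do not say whether a July female of the first step was used again in the second.

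The digestive gland of bivalves surrounds the stomach, takes up and digests food particles inside its cells, stores reserves, and takes part in the handling of metals and other contaminants. Summer in a Mediterranean lagoon brings warm water to these filter feeders. Relative transcript abundance in a whole gland reflects both the amount of a transcript per cell and the mixture of cells, and fewer cells of a type and less RNA per cell cannot be told apart. The array carried 1920 cDNA clones in 2 spots each. Clones were known only by a position code, none of which occurred in the reference gene table, so no gene name, function or sequence is given, and the tissue could not be checked against marker genes.

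Abundance shifted through the summer in both directions. Between June and August, 36 clones rose and 49 fell, 1.88% and 2.55% of the 1920 clones tested, together 85 or 4.43%. A clone was called where its limma adjusted p (Benjamini-Hochberg) was under 0.05 and its log-odds B above 0. Of the 36 higher clones, 33 had both months above background on at least 1 array, and their median rise was 2.24-fold (range 1.67 to 11.8). Of the 49 lower clones, 46 were measured in both months, with a median fall of 3.20-fold (range 1.53 to 6.56). At least 2-fold differences were reached by 20 of those 33 and 39 of those 46.

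The 6 arrays did not agree equally, and the counts rest on them unequally. On replicate 1 of each step the later month was in Cy5, and on replicates 2 and 3 it was in Cy3. Over 1920 clones, the log2 ratios of the first Jul/Jun array correlated with those of the others at r = 0.07 and 0.03, whereas these others correlated with each other at 0.78 (Spearman's rho -0.07, -0.16 and 0.69). For Aug/Jul the first array correlated with the others at 0.28 and 0.16, and the others with each other at 0.58. These are descriptions across clones of the same arrays, in which dye orientation and replicate go together. The first Jul/Jun array was not dim: 53.1% of its clone spots stood above background in both channels and its duplicate spots correlated at 0.94. The direction of every array was taken from its dye labels; for this array the other replicates do not bear the labels out, and a check of them by a known gene was not possible. The first Aug/Jul array was the dimmest of the 6, at 28.2% and a duplicate correlation of 0.52, against 46.9% to 62.7% and 0.71 to 0.83 on the other 4 arrays, with a range of 13.6% to 78.4% over the series. Without the first Jul/Jun array 115 clones were called in August minus June, 77 higher and 38 lower, of which 54 were among the 85. On the arrays with the later month in Cy3 alone, a setting added after the data were seen, 129 were called, 68 higher and 61 lower. The count fell to 56 without the third Jul/Jun array and to 54 without the third Aug/Jul array. The balance of higher and lower clones therefore moved with the arrays used: higher clones outnumbered lower ones without the first Jul/Jun array and were fewer in the full set.

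The individual arrays showed how each direction was built up. The median log2 ratio of the 36 higher clones was 0.26, 0.73 and 0.63 on the 3 Jul/Jun arrays and 0.74, 0.44 and 0.55 on the 3 Aug/Jul arrays. It was above 0 on every array and lowest on the first Jul/Jun array, where 24 of the 36 clones were above 0. The median of the 49 lower clones was -0.74, -0.62 and -0.83 on the Jul/Jun arrays and -0.11, -0.99 and -0.99 on the Aug/Jul arrays. It was closest to 0 on the dim first Aug/Jul array, where 31 of the 49 were below 0. Of the 85 called clones, 38 lay on the same side of 0 on all 6 arrays, against 5.68% of all clones; since these arrays also made the calls, this is a description.

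Myt01-011D07 and Myt01-012D07 were the clones with the highest B among those higher in August than in June. The log2 ratios of Myt01-011D07 were 0.79, 1.60 and 1.00 on the Jul/Jun arrays and 0.66, 0.03 and 0.94 on the Aug/Jul arrays. All 6 were above 0, and the second Aug/Jul array was close to no change. Its August minus June difference was 1.68 ± 0.22 (log2, SE, 6 arrays), or 3.20-fold, with a limma adjusted p of 7.45e-06. The ratios of Myt01-012D07 were 0.88, 1.25 and 0.68 for Jul/Jun and 1.20, 0.17 and 0.84 for Aug/Jul. Again all 6 were above 0 with the second Aug/Jul array lowest, and the sum was 1.67 ± 0.22 (limma adjusted p = 7.45e-06). Both clones were bright, with 12 of 12 channels above background on the 6 arrays. They came from different plates and were printed in different blocks, 16 and 12, at the same row and column within the block. Their log2 ratios correlated at 0.91 over the 34 arrays outside the summer steps, a value given as a description; whether they derive from the same transcript is not known.

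Myt01-014E08 and Myt01-013E02 had the highest B among the lower clones. Myt01-014E08 gave -0.93, -1.05 and -0.78 for Jul/Jun and -0.54, -0.95 and -0.75 for Aug/Jul. Every array lay below 0 and the steps were of similar size, and the sum was -1.67 ± 0.20 (log2, SE, 6 arrays), a 3.18-fold fall with a limma adjusted p of 2.85e-06. This clone was of moderate brightness, with 9 of 12 channels above background. Myt01-013E02 gave -0.56, -1.16 and -1.23 for Jul/Jun and -0.21, -1.10 and -0.88 for Aug/Jul. Its ratios were weakest on the first array of each step and below 0 on all 6, and its sum was -1.71 ± 0.27 (limma adjusted p = 0.000148).

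**Figure D1:**
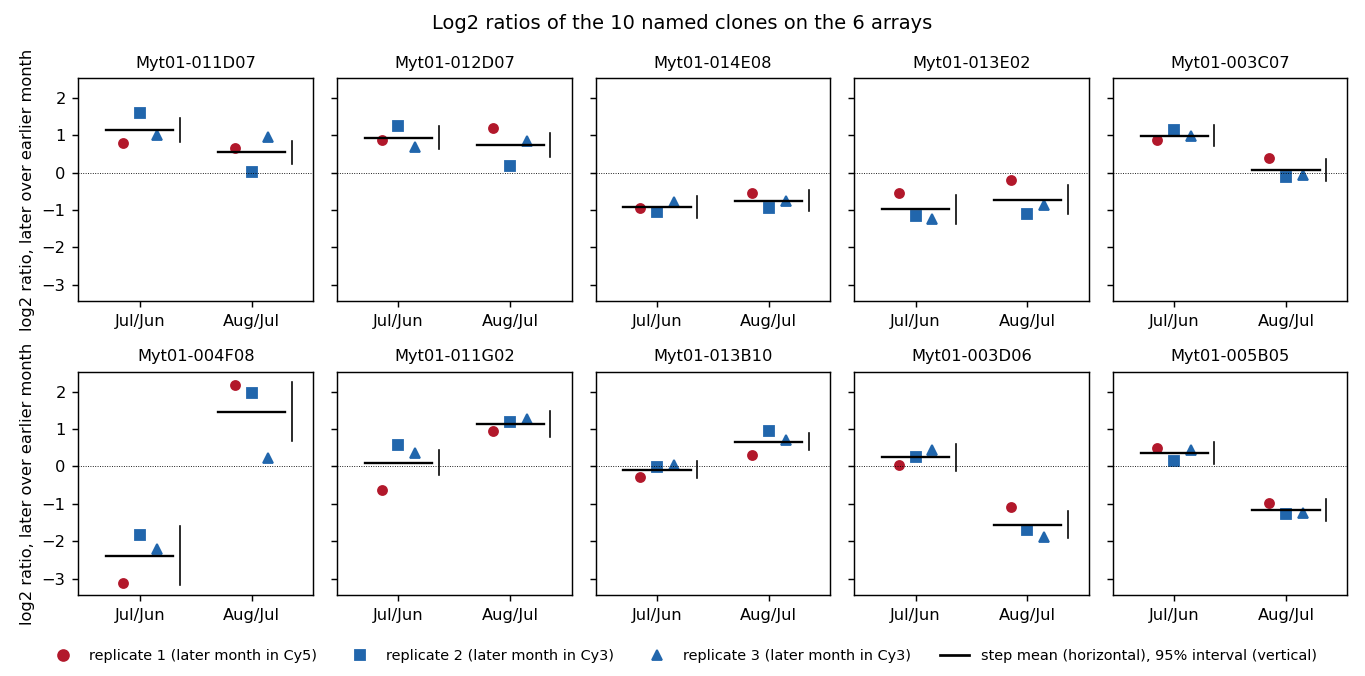
Log2 ratios (later over earlier month, vertical axis) of the 10 named clones on each Jul/Jun and Aug/Jul array (horizontal axis). Symbols mark the replicate, colours the dye of the later month, horizontal lines the step means and vertical lines their 95% intervals from the limma fit; Myt01-011D07, Myt01-012D07, Myt01-014E08 and Myt01-013E02 keep 1 side of 0 on all 6 arrays, whereas Myt01-004F08 lies below 0 in Jul/Jun and above it in Aug/Jul.

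From June to July, 57 clones were called, 2.97% of those tested, with 26 higher (1.35%) and 31 lower (1.61%) in July. Among clones measured in both months the median rise was 1.82-fold (24 clones, range 1.37 to 3.81) and the median fall 2.32-fold (25 clones, range 1.54 to 4.37). The direction was shared by all 3 arrays for 56 of the 57, against 31.2% of all clones. Because these arrays also made the calls, this is a description. Which clones were called moved with the array left out, most of all with the first: without it, 66 clones were called, 48 higher and 18 lower, and 19 of them were among the 57, against 37 and 32 shared clones without the second and the third array. The median log2 ratio of the 31 lower clones was -1.85 on the first array and -0.94 and -0.96 on the others.

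Myt01-011D07, described above, had the highest B among the rises from June to July. Its step mean was 1.13 ± 0.16 (limma SE, mean of 3 arrays, limma adjusted p = 4.89e-05). The rise with the next highest B was Myt01-003C07, which gave 0.87, 1.13 and 0.97 on the Jul/Jun arrays and 0.38, -0.10 and -0.06 on the Aug/Jul arrays. It rose on all 3 arrays of the first step and lay on both sides of 0 in the second. The first step was 0.99 ± 0.14 (limma adjusted p = 4.89e-05) and the second 0.07 with a 95% interval of -0.21 to 0.36.

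Myt01-014E08 had the highest B among the falls from June to July, although other clones fell by more. Its step mean was -0.92 ± 0.14 (log2, limma SE, mean of 3 arrays, limma adjusted p = 0.000148). Myt01-004F08, the other named fall, gave -3.12, -1.84 and -2.20 on the Jul/Jun arrays and 2.19, 1.98 and 0.23 on the Aug/Jul arrays. The ratios of the steps did not overlap. The first step had a mean of -2.39 ± 0.38 (limma adjusted p = 0.000295). June was above background on all 3 Jul/Jun arrays and July on none of them, so the July level is only bounded: June was at least 4.47-fold higher, with the July channel set no lower than the dimmest signal above background on each array, a bound open to dye bias. In Aug/Jul, July was above background on 1 array and August on 2, and neither on the last array. The second step, 1.47 ± 0.38, had a limma adjusted p of 0.011 but a B below 0 and was not called.

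From July to August more clones were called, 90 or 4.69% of those tested, and more of them fell than rose, 58 (3.02%) against 32 (1.67%). Among clones measured in both months the median rise was 1.56-fold (30 clones, range 1.38 to 2.19) and the median fall 1.73-fold (55 clones, range 1.41 to 3.45). The direction was shared by the 3 arrays for 83 of the 90, against 41.5% of all clones, again a description of the arrays that made the calls. Here the count rested on the arrays of replicates 2 and 3, since 45 clones were called without the former and 38 without the latter, but 106 without replicate 1. Whether the number of changed clones differed between the steps was not tested. The order of the counts was reversed with array weights, at 73 in Aug/Jul against 243 in Jul/Jun. It was also reversed without the second or the third Aug/Jul array, at 45 against 61 and 38 against 59.

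The falls from July to August were unevenly spread over the slide. The print-tip blocks 15 and 16, which held 240 of the clones or 12.5%, contained 26 of the 58 lower clones and none of the 32 higher clones. The median log2 ratio of all clones in these blocks was -0.27 and -0.18. Elsewhere the block medians ranged from -0.15 in block 11, which held 7 lower and 0 higher clones, to 0.13. After a separate loess curve for each print-tip block, block medians ranged from -0.03 to 0.08 and 81 clones were called, 29 higher and 52 lower, with 5 of the lower ones in blocks 15 and 16. Of the 90 clones, 45 remained called. In August minus June, 57 of the 85 and in Jul/Jun 45 of the 57 remained called under that setting. In Aug/Jul lower clones outnumbered higher ones under both settings, whereas in Jul/Jun print-tip loess gave 33 of each.

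**Figure D2:**
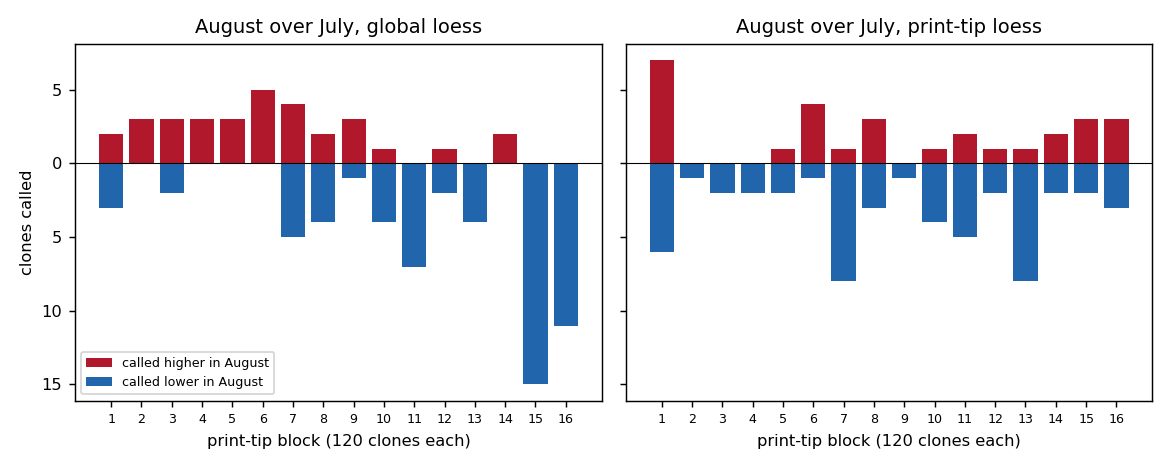
Number of clones called in August over July in each of the 16 print-tip blocks (horizontal axis), higher above the line and lower below it, after global loess (left) and after print-tip loess (right). Blocks 15 and 16 hold 15 and 11 lower clones on the left, and together 5 on the right.

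Myt01-003D06 and Myt01-005B05 had the highest B among the falls from July to August. Myt01-003D06 gave -1.08, -1.70 and -1.89 on the Aug/Jul arrays and 0.04, 0.25 and 0.44 on the Jul/Jun arrays. It was below 0 on every array of the second step and above 0 on every array of the first. The second step was -1.56 ± 0.18 (log2, limma SE, mean of 3 arrays), a 2.94-fold fall with a limma adjusted p of 1.58e-06. Myt01-005B05, which is printed in block 15, gave -0.97, -1.28 and -1.26 after 0.49, 0.15 and 0.43. Its second step was -1.17 ± 0.15 (limma adjusted p = 5.04e-06) and -0.95 with print-tip loess, where it was still called.

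Myt01-011G02 and Myt01-013B10 had the highest B among the rises in that step. Myt01-011G02, one of the brightest clones, gave 0.94, 1.19 and 1.26 on the Aug/Jul arrays and -0.64, 0.59 and 0.37 on the Jul/Jun arrays. The Aug/Jul arrays were close together and the Jul/Jun arrays lay on both sides of 0, and the second step was 1.13 ± 0.17 (limma adjusted p = 5.32e-05). Myt01-013B10 gave 0.32, 0.96 and 0.71 after -0.28, -0.02 and 0.05, with a second step of 0.66 ± 0.11 (limma adjusted p = 0.000226). Both rises were smaller with print-tip loess, at 0.74 for Myt01-011G02 and 0.50 for Myt01-013B10.

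Most clones that differed between June and August had step means of the same sign in both steps. All 36 higher clones had both step means above 0, and 46 of the 49 lower clones had both below 0; among all 1920 clones 565 rose and 413 fell in both means. August minus June is the sum of the steps, so this is a description. The median of the higher clones was 0.64 in the first step and 0.56 in the second, and that of the lower clones -0.79 and -0.73. By the single steps, 28 of the 85 were called in Jul/Jun only, 27 in Aug/Jul only, 7 in both and 23 in neither. A call in 1 step and not in the other does not show that the steps differed.

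The difference between the steps was tested itself, and 54 clones passed, 2.81% of those tested. Of these, 33 (1.72%) had a lower second than first step, and 31 of the 33 rose to July and fell to August in their step means, with medians of 0.44 and -0.84. The other 21 (1.09%) had a higher second step, and 20 of them fell to July and rose to August, with medians of -0.40 and 0.55. Among all 1920 clones 480 rose and then fell and 462 fell and then rose. July RNA entered both steps with opposite sign, and selection on their difference favours both of these shapes, so they are a description. The split of 33 against 21 was 27 against 23 without the first Jul/Jun array and 40 against 42 with array weights. Myt01-003C07 had a difference of -0.92 ± 0.20 (log2, SE, 6 arrays, limma adjusted p = 0.00355), and its second step could not be told apart from 0. For Myt01-003D06 the difference was -1.80 ± 0.26 and for Myt01-005B05 -1.52 ± 0.21 (limma adjusted p = 2.21e-05 and 1.81e-05), and for Myt01-011G02 and Myt01-013B10 it was 1.02 ± 0.24 and 0.74 ± 0.16 (0.00774 and 0.00306). For Myt01-004F08 it was 3.85 ± 0.54 (limma adjusted p = 2.21e-05), with a July level near background. The steps of Myt01-011D07, Myt01-012D07, Myt01-014E08 and Myt01-013E02 did not pass (limma adjusted p from 0.10 to 0.68), and the 95% interval of the difference was -1.04 to -0.14 for the first and -0.65 to 0.24 for the second. Myt01-011D07 lies in block 16, whose median Aug/Jul log2 ratio was -0.18 with the global loess used here.

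**Figure D3:**
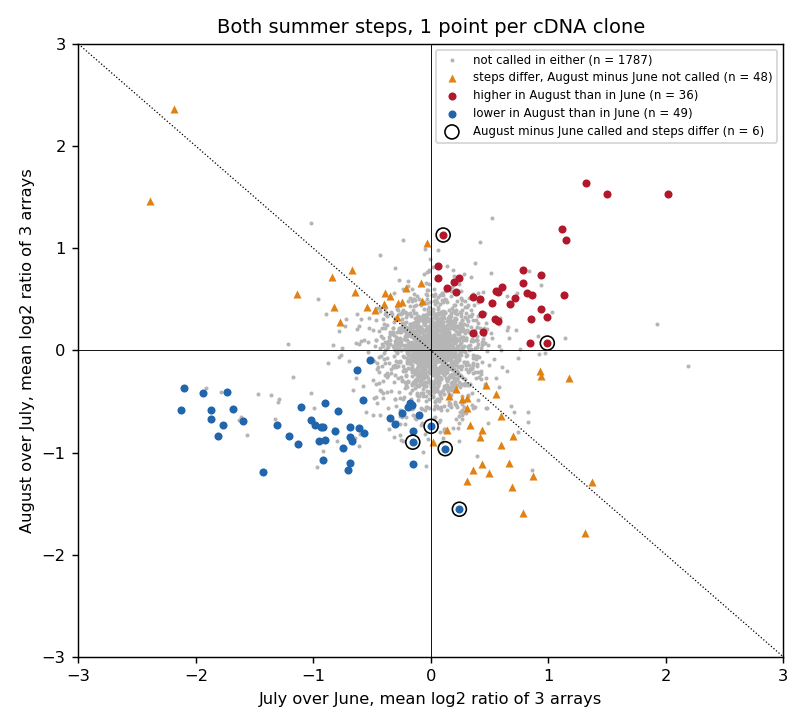
Mean log2 ratio of July over June (horizontal) and August over July (vertical) for 1920 clones, 1 point per clone; the dotted diagonal marks no difference between June and August. Clones higher (36) and lower (49) in August than in June lie mostly at the upper right and lower left, and the clones whose steps differ without a call in August minus June (48) lie mostly at the upper left and lower right.

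The months on either side placed the summer course in the season. In June over May 67 clones were called, 3.49% of those tested, and in September over August 87, 4.53%, from 3 arrays each. These steps share June or August with the summer steps, so their values are set side by side and nothing is read from their signs together. The 36 clones higher in August than in June had a median of -0.54 in June over May and -0.02 in September over August. The 49 lower clones had medians of 0.49 and -0.75, while over all clones both medians were within 0.01 of 0.

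The named clones differed in their neighbouring steps. Myt01-011D07 was -1.24, -1.44 and -0.75 on the June over May arrays and 1.10, 0.78 and 0.70 on the September over August arrays, both called (limma adjusted p = 1.44e-05 and 0.000301). Its abundance was lower in June than in May and higher in September than in August. Myt01-012D07 had step means of -1.17 ± 0.38 and 0.84 ± 0.15 (SD, n = 3), also both called. Myt01-013E02 fell into September, with -1.39, -1.57 and -1.04 (limma adjusted p = 2.46e-05), and Myt01-014E08 had a mean of -0.51 ± 0.19 (SD, n = 3) that was not called. Myt01-003D06 rose by 1.22, 1.54 and 1.52 from May to June (limma adjusted p = 1.05e-05) and was -0.14 ± 0.29 in September over August. Myt01-005B05 rose from May to June by a mean of 0.71 ± 0.14 (SD, n = 3), which was called, and gave 0.18 ± 0.16 in September over August. The remaining 4 named clones were called in neither neighbouring step.

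**Figure D4:**
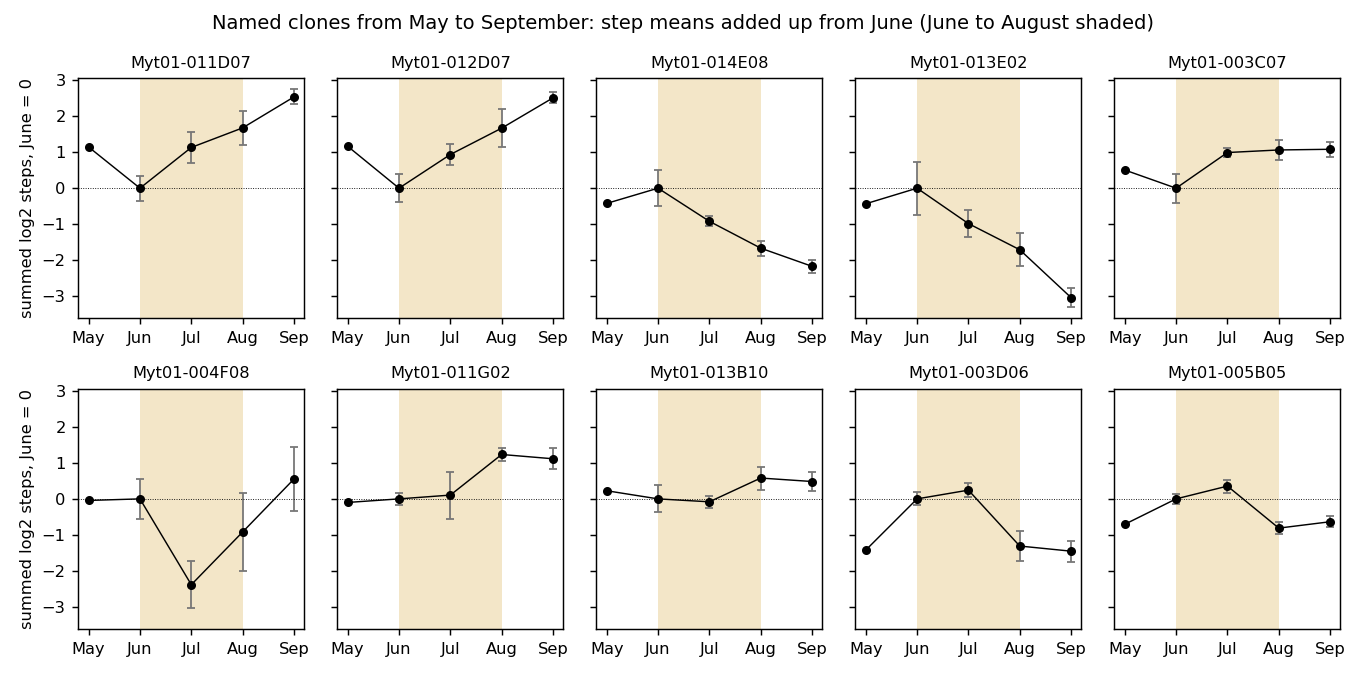
Step means of the 10 named clones added up over the months from May to September (horizontal axis), on the log2 scale with June set to 0 (vertical axis). Points are summed step means, error bars are 1 SD of the 3 arrays of the step that leads to the month and do not add up the earlier steps, and the July value of Myt01-004F08 is near background; from June to August Myt01-011D07 and Myt01-012D07 rise in both steps, and Myt01-003D06 falls after July.

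August minus June could also be estimated the other way round the loop, from the 10 steps and 34 arrays outside the summer. That route runs through the following winter and closes with the array step between the last month sampled and the first, and its median SE was 0.46 against 0.22 for the summer route (log2). The 36 higher clones had a median of 0.54 by it (interquartile range -0.10 to 1.24), and 25 of them were above 0, against 878 of all 1920 clones. The 49 lower clones had a median of -0.39 (-0.79 to 0.01), and 14 of them were above 0. By the summer route, which chose these clones, the medians were 1.14 and -1.66. Named clones differed in this respect: Myt01-003D06 was at -1.84 ± 0.54 (SE) by the other way and -1.31 ± 0.26 by the summer route. Of the clones named for August minus June, Myt01-014E08 was at -0.79 ± 0.42 and -1.67. Myt01-011D07 was at -0.11 ± 0.47 and 1.68, Myt01-012D07 at -0.17 ± 0.46 and 1.67, and Myt01-013E02 at 0.30 ± 0.58 and -1.71. Myt01-011D07, Myt01-012D07 and Myt01-013E02 took the opposite sign by the other way, with values closer to 0 than their SE. Their SEs by the summer route were 0.22, 0.22 and 0.27. For each of them the routes therefore lay further apart than both SEs added together. This also held for Myt01-014E08 (summer SE 0.20), which kept its sign, but not for Myt01-003D06. The difference between the routes was not tested.

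The share of clones called differed with the brightness of the clone. With the clones ranked by brightness into 4 classes of 480, 10.2% of the brightest class were called in August minus June, against 0.625% of the dimmest, and the shares were 8.13% and 0.833% in Jul/Jun and 9.17% and 0.208% in Aug/Jul. In August minus June the brightest class had a median absolute log2 difference of 0.45, against 0.14 in the dimmest. Its median SE was also larger, 0.28 against 0.16. The cause was not tested. The 95% interval of August minus June lay within 2-fold in both directions for 74.4% of clones, and that of the single steps for 90.7% and 87.8%. These shares include clones near background. Both months were above background on at least 1 array for 1469 clones in August minus June, 1263 in Jul/Jun and 1503 in Aug/Jul. For the others a narrow interval does not show a stable abundance. 

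The clones that stayed called under other processing were few. Leaving out each of the 6 arrays in turn kept 26 of the 85 clones of August minus June called every time, 10 higher and 16 lower. For Jul/Jun 7 of 57 and for Aug/Jul 15 of 90 were kept. With 13 other settings of background, normalization, dye and model added, 11 of the 85 were called throughout, 2 higher and 9 lower, 3 of the 57 and 4 of the 90. Scaling between arrays and adjusting p over all comparisons together were among the 13 and changed no call. The fit to the 6 arrays alone and the combined replicate numbers were not among them. Among the named clones, all rises (Myt01-011D07, Myt01-012D07, Myt01-003C07, Myt01-011G02 and Myt01-013B10) and the fall of Myt01-005B05 lost their call when arrays were only centred on the median. The limma adjusted p was then 0.093 for Myt01-011D07 in August minus June and 0.11 in Jul/Jun, 0.17 for Myt01-003C07 and 0.069 for Myt01-013B10, and Myt01-011G02 dropped to a log2 value of 0.41 (0.48). Myt01-012D07 and Myt01-005B05 kept an adjusted p of 0.039 and 0.022 but a B below 0. The sign was kept in all of these fits by 84 of the 85 and by all of the 57 and 90. Selection for large estimates on the same arrays favours this outcome. Of the 57 and the 90, 56 and 83 already lay on the same side of 0 on all 3 arrays of their step. No share over all clones was set beside these counts, so they are a description and do not show that direction was steadier than the call. All calls also rest on a spread estimated over the 40 arrays: fitted by limma to the 6 arrays alone, 0 clones were called in August minus June and in Jul/Jun (285 and 205 at an unadjusted p under 0.05) and 3 in Aug/Jul.

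**Figure D5:**
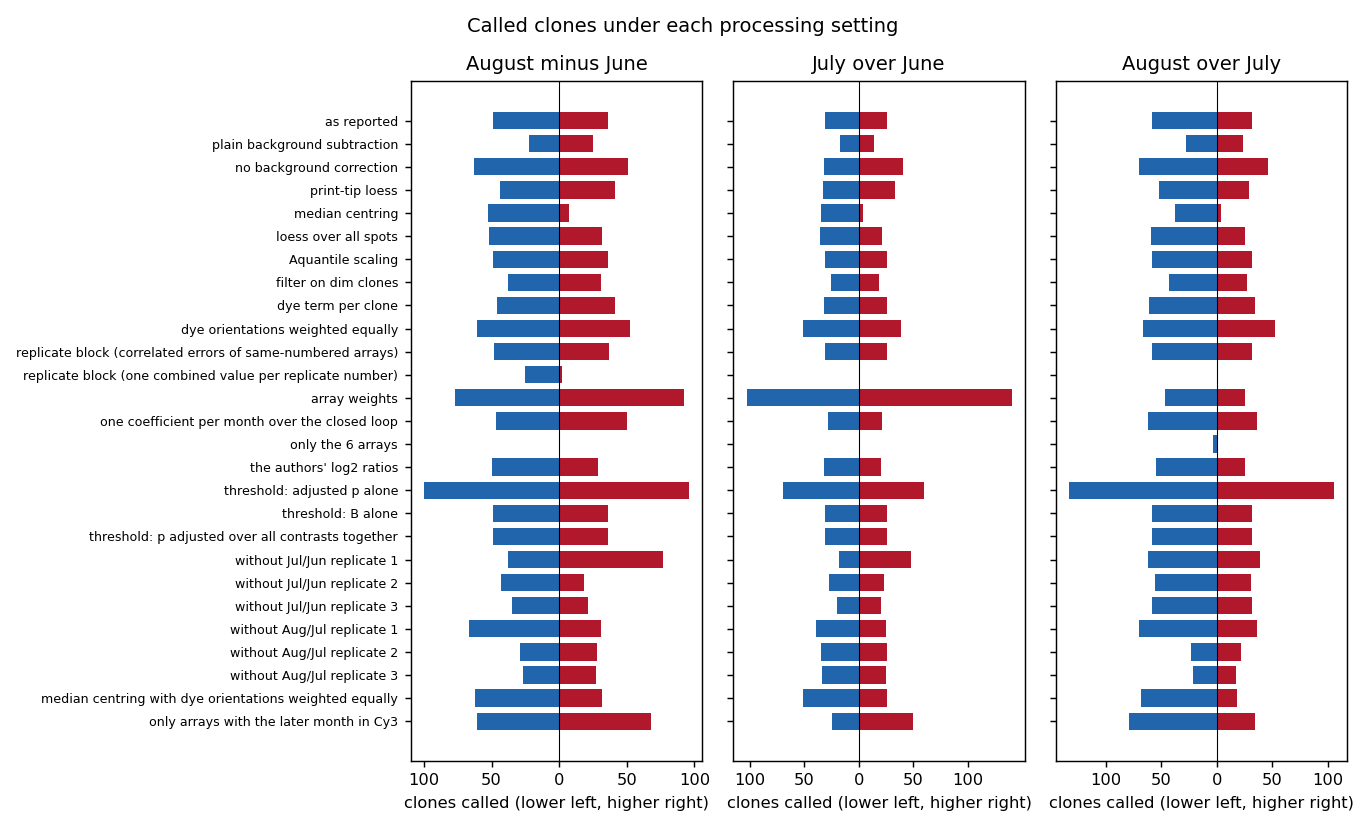
Number of clones called higher (right) and lower (left) in August minus June, July over June and August over July (horizontal axes) under each processing setting (vertical axis); the Jul/Jun and Aug/Jul panels have no value for the combined replicate numbers. In August minus June the higher clones, 36 as reported, number 7 with median centring and 77 without the first Jul/Jun array.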

How the data were processed

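The authors deposited GenePix spot intensity values (mean foreground and median local background of Cy5 and Cy3) for 40 arrays, with no normalization, and a table of normalized log2 ratios made with limma. The authors' log2 ratios were used only as an alternative; they could be recomputed from the intensities in 38 of the 40 columns. Background was adjusted by normexp with an offset of 50. Global loess on the clone spots was applied within each array, ratios were turned to later over earlier month by the dye labels, and the 2 spots of each clone were averaged. A model with 1 coefficient per step was fitted to all 40 arrays with limma 3.58.1 in R 4.3.3 (28 residual and 3.68 prior degrees of freedom). Adjusted p values cover all 1920 clones. A spot counted as above background when its foreground was over the mean of the local background plus 2 of its SDs. The number of arrays limits the precision.

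Replicates were biological, with single females, according to the methods, and each array compared a pair of animals. The members, lists and rules were chosen with earlier results of these data known. Named clones were at most 2 higher and 2 lower with the highest B among the called clones of each comparison. On simulated data with 200 of 1920 clones changed in August minus June, 9% were recovered at a log2 change of 0.5, 67.5% at 1 and 96% at 2. The simulated noise was independent and, for each clone, of equal spread on every array, without dye, block or array effects. These shares therefore do not measure recovery on the real arrays, which did not agree equally. Alternatives covered background correction, normalization, dye, weights, thresholds, the model and each array left out; 2 were added after the data were seen.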

Additional observations from a re-analysis of the deposited data

Results flagged for a closer look

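The steps Jul/Jun and Aug/Jul differed for 54 clones by the limma test of the difference itself. Among the named clones the difference (Aug/Jul minus Jul/Jun, log2) was 3.85 for Myt01-004F08, 1.02 for Myt01-011G02, 0.74 for Myt01-013B10, -0.92 for Myt01-003C07, -1.52 for Myt01-005B05 and -1.80 for Myt01-003D06. The first of these rests on a July channel that was not above background on the Jul/Jun arrays.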

How the results depend on the processing

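Against 85, 57, 90 and 54 called clones in August minus June, Jul/Jun, Aug/Jul and the difference between the steps, plain background subtraction gave 47, 31 and 52 in the first 3 (25 higher and 22 lower, 14 and 17, 24 and 28). Median centring gave 60, 39, 42 and 26 (7 higher and 53 lower, 4 and 35, 4 and 38, 8 and 18). Weighting the dye orientations equally gave 90 in Jul/Jun (39 higher and 51 lower) and 101 in the difference. Array weights gave 169, 243, 73 and 82 in August minus June, Jul/Jun, Aug/Jul and the difference (92 higher and 77 lower, 140 and 103, 26 and 47, 42 and 40). The 6 arrays alone gave 0, 0, 3 and 1, where 285, 205, 334 and 263 had an unadjusted limma p under 0.05. An adjusted p without the limit on B gave 196, 130, 239 and 129. Among settings chosen after seeing the data, the arrays with the later month in Cy3 gave 129 in August minus June and 75 in Jul/Jun (50 higher and 25 lower), and median centring with equal dye weights gave 77 in Jul/Jun (26 and 51) and 86 in Aug/Jul (18 and 68). Leaving out 1 array gave 54 to 115, 40 to 66, 38 to 106 and 34 to 58. The higher and lower split of August minus June was then 77 and 38 without the first Jul/Jun array, 18 and 43 without the second and 31 and 67 without the first Aug/Jul array. It was 22 and 23 in Aug/Jul without its second array, and 10 and 26 in the difference without its last. The other settings, print-tip loess among them, kept each count within 1.5 times; the causes were not tested. Named clones were selected for a high B on the same arrays, and none changed direction under these settings. The estimate the other way round the loop was not one of them.

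The steps share replicate numbers 1 to 3, which the labels tie to no animal or day. Deviations of same-numbered arrays from their step means correlated at -0.05, -0.01 and -0.01, and those of other pairs at -0.16 to 0.15. A July female on both arrays would enter them with opposite sign, and each step has only 3 arrays. These values therefore cannot settle whether the numbers pair the arrays. With the number as a replicate block, 85, 57, 90 and 54 clones were called. Combining the same-numbered arrays of both steps into 1 value each gave 27 in August minus June (2 higher and 25 lower) and 1 in the difference.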
